A study of Mus musculus with 14 samples.

Results

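The nuclear genes for the subunits of respiratory chain complexes I to IV were followed through the H3K4me3 peak lists of hematopoietic stem and progenitor cells. Members were protein-coding genes on the mouse nuclear chromosomes whose symbols follow the naming of complex I (Nduf), complex II (Sdh), complex III (Uqcr and Cyc1) or complex IV (Cox4 to Cox8) subunits. The rule used names only and no measured value. It gave 72 genes of the 21440 protein-coding genes whose start could be placed: 41 of complex I, 4 of complex II, 9 of complex III and 18 of complex IV.

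LSK cells (lineage-negative, Sca1-positive, cKit-positive) were sorted from the bone marrow of the tibias and femurs of C57BL/6J male mice kept for 16 to 20 wk on an HFD with 60% of its kcal from fat or an LFD with 10%. H3K4me3, a mark of active and poised promoters, was profiled by CUT&Tag, which the sample titles call CUT&RUN. A peak list was at hand for each of 3 HFD-LSK and 4 LFD-LSK libraries, and the 7 IgG libraries were not used here because no file of theirs was given. The gate holds stem cells together with several progenitor types, and a bulk list cannot tell apart fewer cells of a type and less mark per cell. Nothing in the labels says that the libraries came from separate mice, so p-values measure only the spread between these libraries. The study describes a second cohort added for LSK cells, and the labels do not say which library came from which cohort, so that no value within a cohort could be given and no test over the 7 libraries holds a cohort term.

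Complexes I and II pass electrons from NADH and succinate to ubiquinone, complex III passes them on to cytochrome c and complex IV to oxygen, and complexes I, III and IV pump protons. Most subunits are encoded in the nucleus. Several complex IV subunits exist as isoform pairs, a broadly used form and one kept for heart and skeletal muscle, lung or testis. Quiescent hematopoietic stem cells are known for leaning on glycolysis, and oxidative phosphorylation rises as they leave quiescence.

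The mark was called at most of these genes in these cells, and 6 of the 10 genes without a call were complex IV isoforms known from other tissues. At least 1 list held a peak within 1 kb of the start for 62 of the 72 genes, and all 7 lists held one for 28 (38.9%), against 21.8% of protein-coding genes. No list held one for 10 (13.9%), against 46.1% of protein-coding genes. The sequences directly upstream of 4 pairs of related genes are given first. These pairs were picked because their members differed both in calls and in CpG content, so that agreement between the 2 is no finding. Each line has 150 bases ending at the base before the start, 5′ to 3′ on the strand of the gene, from RefSeq promoter windows on GRCm38.p6, and capitals mark the CG dinucleotides.
Cox6b1 (chr7:30626115-30626264, minus strand): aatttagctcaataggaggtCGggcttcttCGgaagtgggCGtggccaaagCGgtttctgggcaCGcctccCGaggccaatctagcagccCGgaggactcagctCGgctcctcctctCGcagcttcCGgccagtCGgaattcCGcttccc
Cox6b2 (chr7:4753095-4753244, minus strand): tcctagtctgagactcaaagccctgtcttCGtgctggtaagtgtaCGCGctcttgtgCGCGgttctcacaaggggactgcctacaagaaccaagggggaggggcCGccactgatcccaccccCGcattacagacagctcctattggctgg
Cox7a2 (chr9:79759854-79760003, minus strand): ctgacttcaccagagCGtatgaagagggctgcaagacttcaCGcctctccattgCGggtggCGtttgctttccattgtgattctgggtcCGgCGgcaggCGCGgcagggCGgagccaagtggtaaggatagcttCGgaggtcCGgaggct
Cox7a1 (chr7:30184021-30184170, plus strand): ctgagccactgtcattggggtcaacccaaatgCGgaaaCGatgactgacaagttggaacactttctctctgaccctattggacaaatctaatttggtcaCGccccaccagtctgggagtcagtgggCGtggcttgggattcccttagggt
Cox8a (chr19:7217617-7217766, minus strand): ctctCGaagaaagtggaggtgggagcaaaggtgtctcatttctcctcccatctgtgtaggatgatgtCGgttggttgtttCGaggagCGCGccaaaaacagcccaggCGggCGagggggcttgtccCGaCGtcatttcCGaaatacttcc
Cox8b (chr7:140900447-140900596, minus strand): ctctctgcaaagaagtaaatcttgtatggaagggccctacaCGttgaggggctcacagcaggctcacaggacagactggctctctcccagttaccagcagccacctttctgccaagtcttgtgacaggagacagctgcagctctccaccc
Ndufb4 (chr16:37654369-37654518, minus strand): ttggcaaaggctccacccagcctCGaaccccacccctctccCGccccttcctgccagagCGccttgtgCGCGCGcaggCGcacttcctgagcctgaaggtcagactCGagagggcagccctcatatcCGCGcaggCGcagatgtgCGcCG
Ndufb4b (chr19:25032958-25033107, plus strand): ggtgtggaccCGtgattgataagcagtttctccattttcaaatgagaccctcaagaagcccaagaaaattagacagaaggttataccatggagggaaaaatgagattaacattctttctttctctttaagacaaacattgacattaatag

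Cox8a, the broadly used form of complex IV subunit 8, had 10 CG and a peak in 6 lists, and Cox8b, its heart and muscle form, had 1 CG and no peak. Cox7a2 had 11 CG and a peak in 3 lists, and Cox7a1, the heart and muscle form, had 4 CG and none. Cox6b1 had 12 CG and a peak in 3 lists, while Cox6b2, the testis form, had 7 CG and a peak in 1 list. Ndufb4, an accessory subunit of complex I, had 13 CG and a peak in 7 lists, and Ndufb4b, a further copy of it, had 1 CG and none. The pair Cox7b and Cox7b2 went the other way. In windows from 250 bases before to 50 after the start, Cox7b, the broadly used form, had 5 CG, an observed-to-expected ratio of CpG of 0.37 and a peak in 1 list, and Cox7b2 had 10 CG, a ratio of 0.56 and no peak. Sites were counted in the letters only, and their methylation was not analysed here.

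Over these windows, 56 of the 72 genes had a sequence, in 58 windows. The observed-to-expected ratio of CpG had a median of 0.87 over the 23 windows of members called in all 7 lists, 0.79 over the 30 of members called in 1 to 6 lists, and 0.40 over the 5 of members called in none. The medians were 0.82 for protein-coding genes called in all 7 lists and 0.22 for those called in none. Ndufa6, an accessory complex I subunit, stood out among the uncalled members with a ratio of 0.85, the range of the other 4 being 0.11 to 0.56. At the other end, Ndufc2 was called in all 7 lists with a ratio of 0.48.

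**Figure D1:**
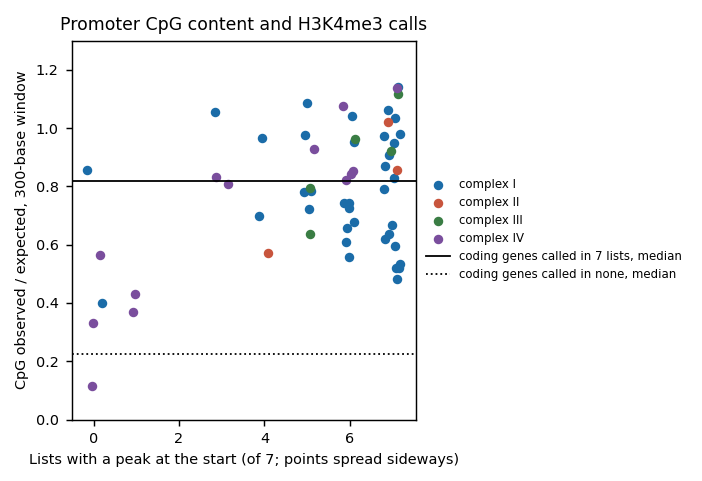
Observed-to-expected CpG ratio of the 300-base promoter window (y axis) against the number of the 7 lists with a peak at the start (x axis), 1 point per window, coloured by complex. Windows of members with a peak in 3 or more lists lay at or above 0.48, and those with a peak in 0 or 1 list lay between 0.11 and 0.56 except Ndufa6 at 0.85.

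Letters of the factors known to act on respiratory genes were searched on both strands of the same windows, and none of these motifs contains another. The NRF1 core (GCGCNTGCG), a motif of the regulator nuclear respiratory factor 1, was in 16 of 58 member windows (27.6%), against 6.31% of all windows in the table and 16.8% of those of protein-coding genes called in all 7 lists. The ETS letters bound by GABP (CCGGAAG) were in 11 (18.97%), against 8.86% of all windows and 19.6% of those called in all 7 lists. The YY1 letters (AAGATGG) were in 8 (13.8%), against 6.34% and 7.36%. In 7 of these 8, all complex I genes (Ndufa3, Ndufa9, Ndufb8, Ndufc1, Ndufs4, Ndufs6 and Ndufs7), they lay 22 to 38 bases after the start on the strand of the gene, a placement found in 1.3% of all windows. SP letters (GGGCGG) were in 24 (41.4%), above the 35.7% of all windows and below the 46.2% of protein-coding genes and the 69.1% of those called in all 7 lists. The TATA letters (TATAAA) were in 7 (12.1%), against 13.6% of all windows, 12.6% of those of protein-coding genes and 5.03% of those called in all 7 lists. A match is a run of letters and was not tested as a binding site.

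The share of members called was above that of all protein-coding genes in every list. It was 77.8% in HFD-LSK replicate 1 against 41.4% of protein-coding genes, 84.7% against 51.8% in replicate 2, and 76.4% against 45.6% in replicate 3. In LFD-LSK it was 61.1% against 34.8% in replicate 1, 79.2% against 45.1% in replicate 2, 77.8% against 43.3% in replicate 3 and 44.4% against 30.6% in replicate 4. Replicate 4 of LFD-LSK had the shortest list of the 7 and the fewest members, 32 of 72. The lists hold no read totals, so depth per library is unknown, and a gene without a call may still carry the mark.

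**Figure D2:**
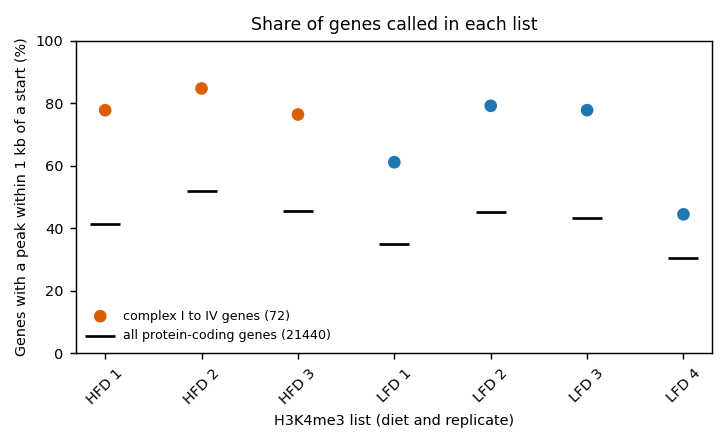
Percent of genes with an H3K4me3 peak within 1 kb of a start (y axis) in each of the 7 lists (x axis). Dots (orange, HFD; blue, LFD) are the 72 complex I to IV genes and black bars all 21440 protein-coding genes. The dots lie above the bars in all 7 lists, from 44.4% against 30.6% in LFD replicate 4 to 84.7% against 51.8% in HFD replicate 2.

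HFD-LSK lists held 56, 61 and 55 members and LFD-LSK lists 44, 57, 56 and 32, so that the groups overlapped. The means were 57.3 ± 3.21 (SD, n = 3) and 47.25 ± 11.8 (SD, n = 4), a difference of 10.1 members. It was 5 without LFD-LSK replicate 4, and 3.08 when every list was shortened to the 6921 strongest peaks of its own, the length of the shortest list. Over all lists of a diet, the mean percentage of members called was 79.6% ± 4.46 in HFD-LSK and 65.6% ± 16.3 in LFD-LSK. Over all protein-coding genes the same comparison gave 46.2% ± 5.27 and 38.5% ± 6.89. Of the 34 members called in 1 to 6 lists, 31 (91.2%) had a peak in a higher percentage of the HFD-LSK lists and 3 (Ndufa5, Ndufv3 and Uqcrb) in a higher percentage of the LFD-LSK lists. The share was 83.1% over the 6887 protein-coding genes of this kind, with every list used. Without LFD-LSK replicate 4 the members numbered 16 against 3. The share over protein-coding genes is not given without that list, so 16 against 3 has no background and is not a result about the members. Of the 16 members called in 6 lists, 12 were missing in LFD-LSK replicate 4 alone, as were 56.9% of the 2754 protein-coding genes called in 6 lists. These 12 were Ndufa8, Ndufab1, Ndufb6, Ndufb9, Ndufb10, Ndufc1, Ndufs1, Ndufv2, Uqcr10, Cox6a1, Cox7c and Cox8a. The other 4 were Ndufa3, Sdhc and Cox7a2l, missing in LFD-LSK replicate 1, and Ndufa5, missing in HFD-LSK replicate 1. Of the 2754 genes, 22.7% were missing in LFD-LSK replicate 1 alone and 4.21% in HFD-LSK replicate 1 alone. A peak in 5 lists was found at Ndufa7, Ndufa9, Ndufs4, Ndufv3, Uqcr11, Uqcrb, Uqcrc1, Cox5b and Cox6c, in 4 at Ndufs5, Ndufv1 and Sdhb, in 3 at Ndufa1, Cox7a2 and Cox6b1, and in 1 at Ndufa4l2, Cox6b2 and Cox7b.

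By complex, the mark was called in all 7 lists at 19 of 41 complex I genes (46.3%), 2 of 4 of complex II, 5 of 9 of complex III (55.6%) and 2 of 18 of complex IV (11.1%), against 21.8% of protein-coding genes. Complex IV was thus below that share. It held 6 of the 10 genes without any call, and these 6 of 18 lay below the 46.1% of protein-coding genes without one. Its lists had 9, 12 and 10 genes called in HFD-LSK and 5, 9, 8 and 3 in LFD-LSK, and replicate 2 of LFD-LSK matched replicate 1 of HFD-LSK. For complex I they had 34, 36 and 34 in HFD-LSK and 29, 36, 35 and 21 in LFD-LSK. For complex III they had 9, 9 and 8 against 8, 8, 9 and 5, and for complex II 4, 4 and 3 against 2, 4, 4 and 3. The 2 diets overlapped in each of the 4 complexes.

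**Figure D3:**
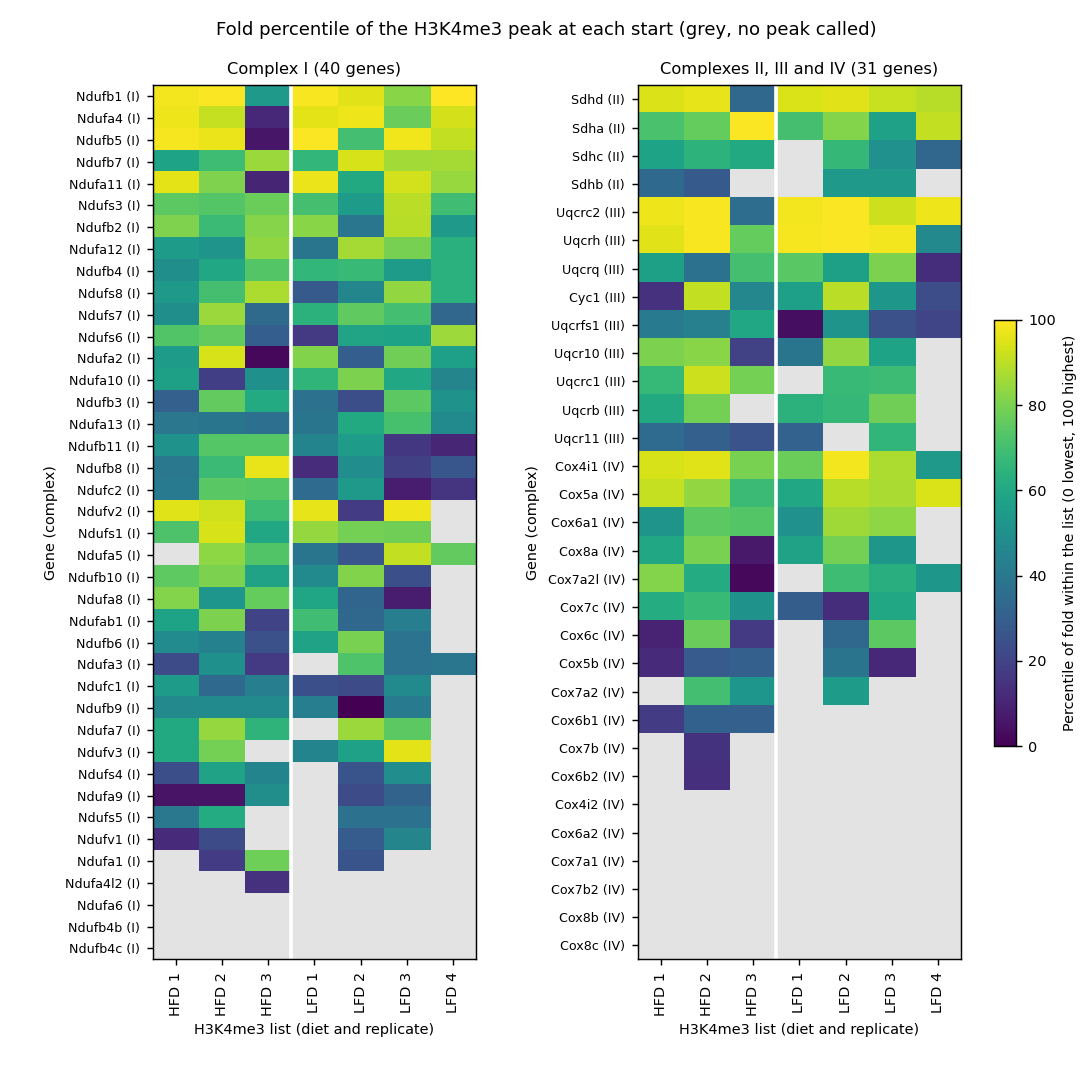
The 71 genes reported by name (rows, with their complex) in the 7 lists (columns; HFD left of the white line). Colour is the percentile of the fold of the peak among all peaks of that list, and grey means that no peak was called within 1 kb of the start. Grey fills the rows of 9 genes at the foot of the panels, and Cox6b1 is coloured in the 3 HFD columns only.

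The strength of a peak was given as the percentile of its fold over background among all peaks of the same list, where 0 is the weakest and 100 the strongest peak. Over the members called in each list the median percentile was 57.4, 73.2 and 52.6 in HFD-LSK and 59.4, 60.7, 67.2 and 55.4 in LFD-LSK, beside 55.3 to 60.4 over all protein-coding genes called. The group means were 61.1 ± 10.8 (SD, n = 3) and 60.6 ± 4.89 (SD, n = 4), a difference of 0.41 percentile points, and the groups overlapped. With lists of equal length the difference was -6.66 points. Among genes called in all 7 lists, the mean percentile had a median of 63.9 over the 28 members and 66.1 over all 4677 genes.

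One list ordered these genes differently from the others. Over the 28 members, the fold percentiles of HFD-LSK replicate 3 had a Spearman correlation of -0.28 with the mean of the other 6 lists, and each of the other lists one of 0.58 to 0.80. These are correlations across genes, which are not independent replicates. Over the 4677 protein-coding genes they were 0.098 for that list and 0.45 to 0.66 for the others. Of 10 members at or above percentile 75 in the mean of the other lists, 5 lay under 50 in HFD-LSK replicate 3. So did 34.1% of the 1576 protein-coding genes at or above 75 in the mean of the other lists. Ndufa4, a subunit first assigned to complex I and found with complex IV, was at 11.6 there and at 77.0 to 97.4 elsewhere. Ndufb5 was at 5.9 against 70.1 to 99.3. The widths of that list followed the others with a correlation of 0.75 over the members. Without it, the difference in median fold percentile between the diets was 4.65 points, and again 0 members separated the diets by fold in either direction.

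**Figure D4:**
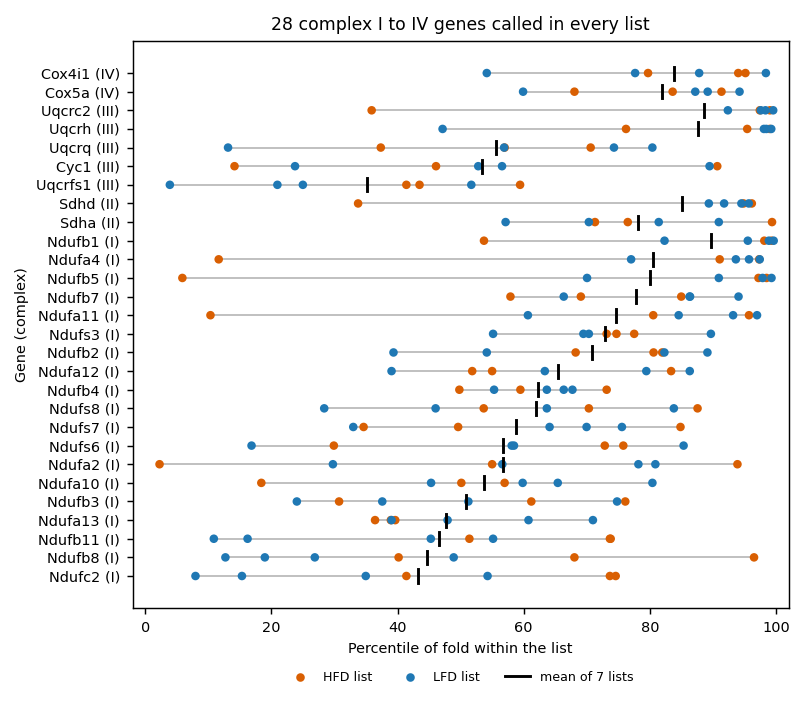
Fold percentile within each list (x axis) of the 28 genes called in every list (rows, grouped by complex and ordered by mean). Dots are lists (orange, HFD; blue, LFD), the grey line spans the lowest to the highest list and the black tick is the mean of 7. Uqcrc2, Sdhd, Ndufa4 and Ndufb5 each have 1 HFD dot, replicate 3, far to the left of the others.

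Among the genes named for complex I, the strongest peaks were at Ndufb1 (mean percentile 89.7) and at Ndufa4 (80.6), which the rule places here by its symbol. Both have an opposite-strand start within 1 kb, of Cpsf2 at 236 bases and of Phf14 at 379 bases. Such peaks cannot be assigned to 1 gene. The weakest among those called in all lists were at the accessory subunits Ndufc2 (43.2) and Ndufb8 (44.6). Among the core subunits, which include those that carry the flavin and the iron-sulfur clusters, Ndufs3, Ndufs7 and Ndufs8 had a peak in 7 lists, with mean percentiles of 72.9, 58.8 and 61.9. Ndufs1 and Ndufv2 had one in 6 lists, at 77.8 and 78.1, and lacked it in LFD-LSK replicate 4 only. Ndufv1, which binds NADH and flavin, had one in 4 lists, at 12.4 in replicate 1 and 23.2 in replicate 2 of HFD-LSK, and at 29.2 in replicate 2 and 45.6 in replicate 3 of LFD-LSK. Its percentile was under 50 in every list that held it.

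Outside this core, Ndufa6 had no peak nearer than 25462 bases, and its neighbours Smdt1 and Pheta2, whose starts lie 8245 and 13112 bases away, had none in any list either.

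All 4 subunits of succinate dehydrogenase, complex II, had a peak in some list. Sdhd, a membrane anchor, was at 94.9, 96.2 and 33.8 in HFD-LSK and 94.5, 95.7, 91.8 and 89.4 in LFD-LSK, the lowest value being that of HFD-LSK replicate 3. Sdha, the flavoprotein, was at 71.3, 76.5 and 99.4 and at 70.3, 81.4, 57.1 and 90.9, and the diets overlapped. Sdhc, the other anchor, had a peak in 6 lists with a mean percentile of 55.6. Sdhb, the iron-sulfur protein, had one in 4 lists with a mean of 42.6.

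In complex III, Uqcrc2, a core protein, was at 97.4, 99.1 and 35.9 in HFD-LSK and 98.3, 99.6, 92.4 and 97.6 in LFD-LSK. Uqcrh, the hinge protein, was at 95.4, 99.01 and 76.2 and at 98.5, 99.3, 98.1 and 47.1. Both were among the strongest peaks of most lists, and the low lists differed: HFD-LSK replicate 3 for Uqcrc2 and LFD-LSK replicate 4 for Uqcrh. Cyc1, which holds cytochrome c1, had a mean of 53.4. Uqcrfs1, the Rieske iron-sulfur protein, had the lowest mean percentile of the 28 genes, 35.1, with 41.4, 43.5 and 59.4 in HFD-LSK and 3.9, 51.7, 24.99 and 20.95 in LFD-LSK.

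Uqcrh also had the widest peak of the 28 genes, with a mean of 2413 bp and 1268 to 3544 bp over the lists. Its upstream bases are shown beside those of Ndufa6, which had no call. The 150 bases shown hold 10 CG in each gene. The windows hold 15 CG at Uqcrh and 27 at Ndufa6, with observed-to-expected ratios of 0.92 and 0.85.
Uqcrh (chr4:116075071-116075220, minus strand): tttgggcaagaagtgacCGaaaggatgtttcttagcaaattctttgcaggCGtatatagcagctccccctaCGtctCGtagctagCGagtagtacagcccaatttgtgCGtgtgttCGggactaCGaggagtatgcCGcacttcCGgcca
Ndufa6 (chr15:82354292-82354441, minus strand): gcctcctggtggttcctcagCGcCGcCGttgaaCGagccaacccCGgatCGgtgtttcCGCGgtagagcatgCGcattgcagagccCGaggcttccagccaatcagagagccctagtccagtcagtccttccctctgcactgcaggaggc

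In complex IV, Cox4i1 and Cox5a had a peak in every list. Cox4i1 was at 94.0, 95.2 and 79.7 in HFD-LSK and 77.7, 98.4, 87.8 and 54.2 in LFD-LSK, and Cox5a at 91.4, 83.6 and 68.1 and at 59.9, 89.2, 87.2 and 94.2. The other 10 called genes of this complex had a peak in 1 to 6 lists. Cox5b had one in 5 lists, at percentiles of 11.5 to 38.5. Cox7b, the broadly used form on the X chromosome, had a single peak, in HFD-LSK replicate 2, at percentile 14.8.

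With every list at full length, the isoform families showed the same order of calls in each of 7 cases. Cox4i1 had 7 lists and Cox4i2, the form of lung and hypoxia, none. Cox6a1 had 6 and Cox6a2, of heart and skeletal muscle, none. Cox7a2l and Cox7a2 had 6 and 3 and Cox7a1 none. Cox8a had 6, and Cox8b and Cox8c none. Ndufa4 had 7 and Ndufa4l2, known as a hypoxia-induced gene, 1. Cox6b1 and Cox6b2 had 3 and 1, and Cox7b and Cox7b2 had 1 and none. The order of these last pairs rests on weak peaks. The single Cox6b2 peak was at fold percentile 13.4 and the single Cox7b peak at 14.8, both in HFD-LSK replicate 2, the longest list. With the same number of peaks from each list, Cox6b1 was called in no list, so its order over Cox6b2 did not hold there. The nearest peak of any list lay 9527 bases from the Cox7a1 start, 17723 from Cox8b, 20276 from Cox8c, 30721 from Cox6a2, 76530 from Cox4i2 and 109587 from Cox7b2. Several of these genes have close copies elsewhere in the genome, and how reads that match several places were treated is not given in the sources used here, so their missing calls are uncertain in that respect.

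Cox6b1 differed by diet in its calls. Cox6b1 (chromosome 7, start at 30626114, minus strand) encodes a subunit at the dimer interface of complex IV, on the intermembrane side. A peak was called in all 3 HFD-LSK lists, with a fold over background of 5.84, 9.50 and 5.98, and in none of the 4 LFD-LSK lists. The peaks spanned 30625781 to 30626190, 30625763 to 30626128 and 30625721 to 30626237, and the summits lay 123 to 345 bases inside the gene. They were weak, at fold percentiles of 17.4, 30.95 and 30.7, and narrow, at 410, 366 and 517 bp. The two-sided Fisher's exact test over libraries gave p = 0.0286, the smallest that 3 against 4 lists allow, and a Benjamini-Hochberg adjusted p of 1 over the 21440 genes. This pattern was shared by 33 protein-coding genes (0.154%), and the reverse pattern by 0 (0%). With every list shortened to 6921 peaks, Cox6b1 was called in none of the 7.

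No member called in all 7 lists had fold percentiles that separated the diets. The exact permutation test over libraries (two-sided, 35 ways to choose 3 of 7) was run on 4677 genes. Every HFD-LSK value lay above every LFD-LSK value at 0 of the 28 members, against 3.31% of the 4677, and below at 0, against 1.6%. An unadjusted p under 0.05 was reached by 113 of the 4677 genes and by 0 members, and the smallest adjusted p was 0.953. The differences with the largest size were at Ndufb8, Ndufc2 and Ndufb11. Ndufb8 was at 40.2, 68.1 and 96.5 in HFD-LSK and 12.7, 48.9, 18.96 and 26.9 in LFD-LSK, a difference of 41.4 points (exact permutation p = 0.0857). Ndufc2 differed by 35.1 and Ndufb11 by 34.4 points (exact permutation p = 0.114 for each). In each of the 3, HFD-LSK replicate 1 lay below the highest LFD-LSK list, LFD-LSK replicate 2. All 3 separated without HFD-LSK replicate 1, and also without LFD-LSK replicate 2. Without HFD-LSK replicate 1, Ndufa13 separated in the other direction. Uqcrfs1 separated in the same direction without LFD-LSK replicate 2. The 3 genes were picked after their values were seen, and no share over all genes is given with a library left out.

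Peaks at the members called in all 7 lists had a lower median width than those at all genes called in all 7. By mean width over the lists, the medians were 1211 bp at members with an opposite-strand start within 1 kb and 754 bp at those without. It was 1119 bp over the 4677 genes, for which no such split is given. Over the 28 members called in all 7 lists the median width was 940, 1450 and 897.5 bp in HFD-LSK and 836, 1157.5, 1003.5 and 532 bp in LFD-LSK. Over the same 4677 genes it was 1093, 1665 and 1060 bp and 881, 1275, 1075 and 635 bp, wider in all 7 lists. Complex medians of the mean width ran from 732 bp for complex IV to 875 bp for complex III over the genes with a call. Among the 28, Uqcrh (2413 bp), Ndufa11 (1478 bp) and Ndufb1 (1438 bp) had the highest mean width percentiles, and Ndufa12 (625 bp), Ndufb4 (652 bp) and Uqcrfs1 (669 bp) the lowest. Uqcrh, Ndufa11 and Ndufb1 each have an opposite-strand start within 1 kb, and Ndufa12, Ndufb4 and Uqcrfs1 do not. The median width of all members called in a list averaged 906.5 ± 277 bp over the HFD-LSK lists (SD, n = 3) and 720.5 ± 147 bp over those of LFD-LSK (SD, n = 4), and the groups overlapped.

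Ndufb7, an accessory complex I subunit on chromosome 8 (start at 83566758, plus strand), was the 1 member whose width percentiles separated the diets. They were 32.9, 30.2 and 45.1 in HFD-LSK and 62.1, 46.3, 52.7 and 48.1 in LFD-LSK, a difference of -16.3 points (exact permutation p = 0.0286, adjusted p = 1). Its widths in bp, 680, 875 and 693 against 870, 911, 840 and 513, overlapped. Over the 4677 genes, every HFD-LSK width percentile lay below every LFD-LSK one at 1.9% and above at 3.12%, and at the 28 members at 1 and 0.

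Many members shared their start region with another gene. A start of a protein-coding gene on the opposite strand lay within 1 kb at 22 of the 72 members (30.6%), against 10.01% of all protein-coding genes. Of these 22, 14 (63.6%) were called in all 7 lists and 0 in none, and of the other 50, 14 (28%) and 10. Over all protein-coding genes, 56.7% of those with such a neighbour and 17.9% of those without were called in all 7 lists. Among the 28 members called in all lists, the mean fold percentile had a median of 76.4 with a neighbour and 60.4 without, and the mean width one of 1211 bp and 754 bp. Such peaks cannot be assigned to 1 of the 2 genes. Of the genes named above as strongest in their complex or widest, Ndufb1, Ndufa4, Ndufa11, Sdha, Sdhd, Uqcrh and Cox4i1 have such a neighbour. Uqcrc2 and Cox5a do not. The Uqcrh peak, for example, had its summit 98 to 963 bases upstream of the Uqcrh start, toward Lrrc41, whose start is 199 bases away. In contrast, Ndufa1 was called in 3 lists although the start of Rnf113a1 lies 16 bases from its own.

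**Figure D5:**
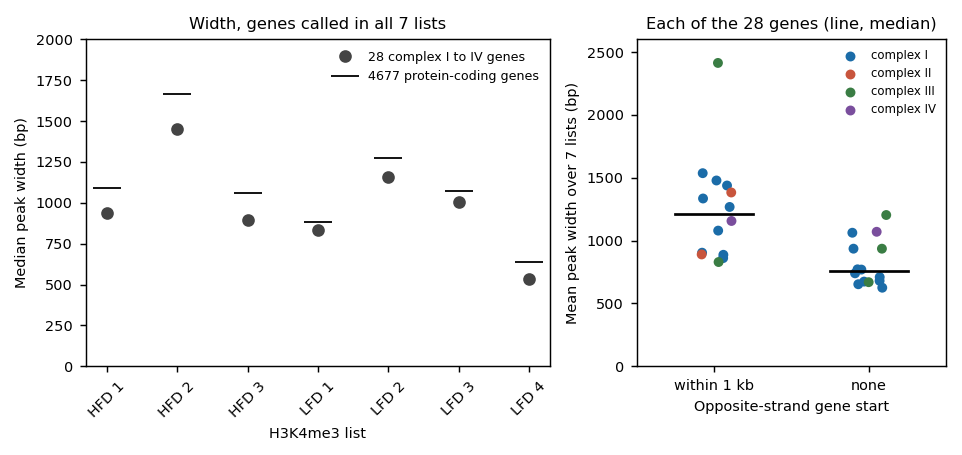
Left, median peak width in bp (y axis) in each list (x axis) over the 28 complex I to IV genes called in all 7 lists (dots) and over the 4677 protein-coding genes called in all 7 (bars); the dots lie below the bars in all 7 lists. Right, mean width of each of the 28 genes with and without an opposite-strand start within 1 kb, coloured by complex, with medians of 1211 and 754 bp (lines).

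The summit of the peak lay downstream of the start at 48 of the 62 called members (77.4%). Over all 62, upstream summits counted as negative, the median distance was 66.75 bases downstream. Over the protein-coding genes with a call the share was 71.1% and the median 110 bases.

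Related genes were looked at from lists chosen with earlier results of these data known. Of 16 ATP synthase genes analysed here, 9 (56.25%) were called in all 7 lists and 1 (Atp5g1) in none, against 21.8% and 46.1% of protein-coding genes. The strongest peak of these was at Atp5j (mean percentile 96.2), which shares it with Gabpa. Of 44 assembly factors, 23 (52.3%) were called in all lists and 1 (Cmc1) in none, and Sdhaf2, which helps to attach flavin to Sdha, was at 90.8. Of 13 regulators and carriers, 10 (76.9%) were called in all lists, among them Nrf1 (84.1), Tfam (77.4) and Cycs (74.8), and Ppargc1a, a coactivator of mitochondrial biogenesis, in none. Fold percentiles separated the diets at 0 of these genes, and width percentiles were higher in every HFD-LSK list at 1 of the 9 ATP synthase genes called in all lists (Atp5j2), 0 of the 23 assembly factors and 1 of the 10 regulators (Yy1), against 3.12% of all 4677 genes.

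The gate was checked with marker genes. Of 14 stem and progenitor markers, 6 (42.9%) were called in all lists, namely Kit, Cd34, Gata2, Meis1, Mecom and Tal1, and 3 in none. Over all protein-coding genes, 21.8% were called in all lists and 46.1% in none. One of these 3 was Ly6a, which encodes the Sca1 antigen of the sort. None of the 4 T cell, 3 B cell, 3 myeloid and 2 NK cell markers had a peak in any list. Of the erythroid markers, Klf1 was called in 5 lists (3 HFD-LSK and 2 LFD-LSK) and Hba-a1 in none. Their part in the results was not tested.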

How the data were processed

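LSK cells of HFD and LFD mice were profiled for H3K4me3 by CUT&Tag, and 1 MACS2 peak list was deposited for each of 3 HFD-LSK and 4 LFD-LSK libraries. The submitters' processing notes name Trim Galore, Bowtie2, Picard, MACS2, bedtools, HOMER and featureCounts without versions, and the build GRCm38, whose coordinates the lists follow. Per the deposited lists, the authors gave each peak a fold over background (a linear ratio at the summit), a −log10 p-value, a −log10 q-value and an integer score. The lowest −log10 p was 5.01 to 5.08 in each list, and the lists hold 6921 to 13094 peaks. The score (10 times −log10 p) was not used.

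Gene starts came from the RefSeq promoter table (GRCm38.p6) for 56 members. For the other 16 the RefSeq gene boundary was used, with the strand from GENCODE by symbol. A gene was called in a list when a peak overlapped 1 kb either side of a start, and its strongest peak by fold was used. Fold and width were turned into percentiles of the list, since the lists differ in length. Per gene, calls were compared by Fisher's exact test and percentiles by an exact permutation test over libraries, with Benjamini-Hochberg adjustment over all genes tested. No p was computed over the members as a set. The steps were tested on simulated data (Python 3.11.15, numpy 2.4.6, pandas 2.3.3, scipy 1.17.1). The members and lists were chosen with earlier results of these data known. Genes were named by rule: all not called in 7 lists, the 2 strongest and 2 weakest of each complex, the 3 widest and 3 narrowest, those separating the diets, the redox core and the isoform families. Ndufb8, Ndufc2 and Ndufb11 as a trio were picked after their values were seen. Protein sequences of the isoforms were not analysed here. One member, which is part of the counts, and 1 marker are not reported here.

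Replicate numbers were checked for pairing: deviations of same-numbered HFD-LSK and LFD-LSK libraries from their group means correlated by 0.0200 to 0.0602 over 4677 genes. Different-numbered libraries gave -0.0804 to 0.0854, so the numbers were not used to pair libraries. The paper states that its differential analysis took covariates such as batch and pairing into account. The labels do not say which libraries were paired, and the tests here hold no pairing. No 2 lists shared more than 8 peaks of identical coordinates.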

Additional observations from a re-analysis of the deposited data

Results flagged for a closer look

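In the group of 4 LFD-LSK lists, 72 sets of values were tested for a sample far from the other 3, and 5 (6.94%) had one. Chance gives about 1 in 20. The fold percentile of Uqcrh was 47.1 in LFD-LSK replicate 4 and 98.1 to 99.3 in the other 3, and its width percentile was 95.4 there and 98.8 to 99.4 elsewhere. The width percentile of Ndufa11 was 77.6 in the same list and 91.7 to 94.0 in the others. The width percentile of Uqcrfs1 was 8.0 in LFD-LSK replicate 3 against 38.6 to 41.6. That of Ndufa10 was 14.6 in LFD-LSK replicate 1 against 69.3 to 77.8. The 3 HFD-LSK lists were too few for this check.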

How the results depend on the processing

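The 28 members called in all 7 lists became 16 with peaks of −log10 q of at least 5, 16 with the same number of peaks from each list and 14 over the 50 members with no other start within 1 kb. The 1 member with lower HFD-LSK width percentiles became 0 with that q limit and 0 with widths in bp, and 1 member (Ndufa13) had lower HFD-LSK fold percentiles when ranked among peaks at coding starts. Under the other windows, ranks and starts, outer gene boundaries being added after seeing the data, each of these counts stayed within 1.5 times. The same number of peaks from each list took the difference in members called from 10.1 to 3.08, the difference in median fold percentile from 0.41 to -6.66 points and the members called in none from 10 to 15. The difference in median fold percentile was within the spread between libraries and also turned to -0.0413 points with the 500 bp window and -0.691 when ranked among peaks at coding starts. Under the remaining alternatives with all 7 libraries, the diets differed by 8.25 to 13.25 members called, 0.324 to 1.77 points and 131 to 186 bp, and by 246 bp with equal lists. Leaving out each library in turn gave 28 to 40 members called in all lists (40 without LFD-LSK replicate 4), 10 to 12 called in none, and a difference of 5 to 13.3 members called, of -5.63 to 4.65 points in median percentile and of 26.2 to 266 bp in median width. Members that separated the diets then numbered 0 to 4 (fold, HFD above), 0 to 2 (fold, below), 0 to 2 (width, above) and 1 to 3 (width, below). The 4 came without LFD-LSK replicate 2, and the 3 narrower ones without LFD-LSK replicate 4. Groups separate more easily with fewer libraries. The share over all genes is not given for 6 libraries, so these counts have no background and are not a result about the members. With 6 libraries no p can be under 0.05, so the p of Cox6b1 and Ndufb7 says nothing there. Ndufb7 had an exact permutation p of 0.114 with the q limit and 0.0571 with equal lists. With the replicate number as a replicate block, the differences were 5 members, -1.34 points and 123 bp. The block leaves out LFD-LSK replicate 4, which has no HFD-LSK partner, so these are the same values as without that list. Depth per library is unknown, which limits all statements on missing calls.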
